A study of Mus musculus with 4 samples.

Results

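The mitochondrial ribosomal protein genes were followed through 4 RNA-seq libraries of group 3 innate lymphoid cells (ILC3s), lymphocytes of the gut wall that lack rearranged antigen receptors. Members were chosen by name alone: every gene whose symbol starts with Mrpl or Mrps and a digit, listed for both pairs of libraries, without pseudogenes marked -ps. This gave 76 genes, 47 of the large subunit (Mrpl) and 29 of the small subunit (Mrps), on 17 chromosomes. They stand among 15242 genes tabulated for the first pair and 12546 for the second.

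All libraries came from mouse small intestine at steady state, from live cells low for CD45, negative for CD3 and high for CD90.2. The first pair was IL-17D KO, from mice deficient for the cytokine IL-17D, and WT. The second was CD93-positive and CD93-negative ILC3s, both from WT mice and separated by CD93, a surface glycoprotein. The labels give, for every library, a culture of 12 h without stimulation before the CD93 sort; they do not say whether the IL-17D KO and WT cells were cultured too. The age, strain and number of the mice and the knockout allele are not given in the labels. Each group had 1 library, so no difference below has a replicate check and no test between groups was possible. Il17d itself was not analysed here, and the genotype labels were not checked against it.

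Mitochondrial ribosomes translate the few messenger RNAs that mitochondrial DNA encodes, all of them for subunits of the respiratory chain and of ATP synthase. Their own proteins are encoded in the nucleus, made in the cytosol and imported, while their ribosomal RNAs come from mitochondrial DNA. Some of these proteins have counterparts in bacterial ribosomes, and others are found in mitochondria and not in bacteria. The small subunit binds the messenger RNA and decodes it; the large subunit joins the amino acids and releases the chain at the inner membrane.

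Levels are FPKM, fragments counted on a gene divided by its length in kilobases and by the library's total. The totals behind this scaling, inferred from the values themselves, were 27002581 (IL-17D KO), 26087274 (WT), 11712846 (CD93-positive) and 11790580 (CD93-negative). A difference is log2((FPKM + 1) / (FPKM + 1)), which understates changes at low levels. Genes with an FPKM of 1 or more in either library of a pair are called measured, and a gene was counted as higher or lower from a difference of 1, that is 2-fold. Ratios of FPKM carry a 95% exact (Clopper-Pearson) interval from recovered reads, which covers counting error only and compares libraries, not conditions. The pairs were tabulated separately, and levels were not set across them.

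The 10 ILC3 markers, Il7r and Il23r among them, reached an FPKM of 1 in each of the 4 libraries. Markers of other cells differed within the first pair. Summed FPKM over the exocrine pancreas list was 1344 in the IL-17D KO library, with 7 of 7 genes at an FPKM of 1 or more, and 0.274 in WT, where Amy2a1, Cela2a, Cpb1, Ctrl and Pnlip were at 0. The epithelial list summed to 1056 and 291 (5 and 4 of 5 genes), the T cell list to 264 and 134 (5 and 5 of 6), the B and plasma cell list to 241 and 129 (4 and 3 of 5), the myeloid list to 59.1 and 11.8 (3 and 1 of 3), and the fibroblast list to 0.181 and 5.62 (0 and 2 of 5, with Lum at 0 in KO). In the CD93-positive and CD93-negative libraries the pancreas list summed to 137 and 204 (6 of 6 genes in each), the epithelial list to 14.9 and 27.9, the T cell list to 2.70 and 9.73, the B and plasma cell list to 2.27 and 4.98, the myeloid list to 31.0 and 22.8, and the fibroblast list to 11.6 and 4.36. The part of these lists in the values below was not tested. In such bulk libraries, fewer cells of a type and less RNA per cell cannot be told apart.

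Promoter letters are given first. They are read from the genome, but members had to be tabulated for both pairs of RNA libraries. The set of all promoters used beside them also holds genes not tabulated for the CD93 pair. RefSeq promoter windows (GRCm38.p6, 250 bases before to 50 after each start) were found for 67 of the 76 genes, in 73 windows. The ETS-type motif CCGGAAGT, searched on both strands as were the others, was in 12 of 73 windows (16.4%), against 3.89% of all 32851 promoters and 7.92% of the 12799 promoters of genes tabulated for the CD93 pair. The YY1-type motif AAGATGGCG was in 8 windows (10.96%), against 1.40% and 2.90%. The palindromic NRF1 motif, in capitals in the Mrpl9 promoter below and the site of a known activator of nuclear genes for mitochondrial proteins, was in 3 windows (4.11%), against 0.971% and 2.01%. All 3 of these were large subunit genes, as were the genes of 46 of the 73 windows. The E-box CACGTG was in 7 windows (9.59%) of 5 genes, 3 of them overlapping windows of Mrpl2, against 7.15% and 9.71%. Median GC content was 58.3% in the windows of the members and 52.7% over all windows; the part of base composition in these shares was not tested. Each motif was counted on its own, with overlaps between motifs kept. A match is a description, not a bound site.

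The promoters of 4 members are shown because their genes mark the range of differences described below and 3 of them hold the same motif: Mrps27 was the highest member of the first pair, Mrps22 lay below 0 in the first pair and above in the second, Mrpl43 was close to 0 in both, and Mrpl9 was the lowest member of the second. Each stretch holds no annotated exon base (GENCODE M21) and reads 5′ to 3′ on the gene's strand, with the match in capitals. It is the ETS-type motif in the first 3, on the opposite strand in Mrps27, where the letters are its reverse complement, and the NRF1 motif in Mrpl9.
Mrps27 (chr13:99344706-99344785, plus strand): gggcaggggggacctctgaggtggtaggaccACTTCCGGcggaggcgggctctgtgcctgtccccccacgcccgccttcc
Mrps22 (chr9:98601680-98601779, minus strand): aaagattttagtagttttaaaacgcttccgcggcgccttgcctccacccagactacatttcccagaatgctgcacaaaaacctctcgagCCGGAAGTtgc
Mrpl43 (chr19:45006443-45006542, minus strand): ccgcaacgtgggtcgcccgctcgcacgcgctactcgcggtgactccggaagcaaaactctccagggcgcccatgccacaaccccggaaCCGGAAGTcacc
Mrpl9 (chr3:94443236-94443317, plus strand): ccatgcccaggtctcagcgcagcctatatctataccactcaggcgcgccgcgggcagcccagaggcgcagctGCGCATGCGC
Distances are counted to the RefSeq start of each window, which can differ from the GENCODE start, as it does in Mrpl9 (GENCODE start 94443318). The match began 11 bases before the start in Mrps22, 12 in Mrpl43, 28 in Mrpl9 and 49 in Mrps27. In the first pair the differences of these genes were 1.86 (Mrps27), 0.29 (Mrpl9), 0.01 (Mrpl43) and -0.32 (Mrps22), and in the second 0.63, -0.39, -0.01 and 0.53 in the same order. Over all 12 members with the ETS-type motif, 3 lay above 0 and 9 below in the first pair, from -1.40 (Mrpl3) to 1.86, and 10 lay above 0 and 2 below in the second, from -0.01 to 0.63. Over all measured members, 27 lay above 0 and 47 below in the first pair, and 60 and 16 in the second. In the same order, the YY1-type motif had 5 and 3, then 8 and 0. The NRF1 motif had 2 and 1, then 1 and 2, and the E-box 2 and 3, then 4 and 1. Mrps27 is also among the YY1-type genes. No link of a motif to a direction was tested.

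Members were transcribed over a wide range of levels. In the first pair, mean FPKM of the 2 libraries ran from 0.491 to 60.0, a 122-fold range, and the members' median lay at percentile 66.2 of all measured genes. Mrpl28 was the highest, with an FPKM of 65.0 in IL-17D KO and 55.1 in WT, followed by Mrps28, with 45.3 and 59.0. Mrpl46 had 40.7 and 47.6, Mrpl54 had 42.2 and 42.0, and Mrps12, which lies at the decoding centre, had 31.8 and 48.2. The 2 libraries order these neighbours differently: Mrpl28 led in IL-17D KO and Mrps28 in WT. At the other end, Mrpl47 (0.712 and 0.269) and Mrps35 (0.631 and 0.435) stayed under an FPKM of 1 in both libraries, which left 74 of 76 members measured.

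In the second pair mean FPKM ran from 1.27 to 46.6, a 36.6-fold range, and all 76 members were measured. The median percentile was 48.1 among the 10117 genes measured in this pair. That of the first pair rests on another set of 12376 genes, so the 2 percentiles are not compared. Mrpl24 was the highest, with 45.9 in CD93-positive and 47.3 in CD93-negative cells, and Mrps21 had 46.6 and 35.1. Mrpl34 followed with 31.8 and 20.7, Mrpl54 with 28.9 and 21.9, and the stalk protein gene Mrpl10 with 22.2 and 23.3. Mrps35 was the lowest here, at 1.54 and 1.00, with Mrps25 next at 1.88 and 1.32. Across the 76 genes, log2(FPKM + 1) of the 2 libraries had Pearson's r of 0.885 (Spearman's rho 0.879) in the first pair and 0.971 (0.969) in the second. These are correlations across genes, which are not independent replicates and share gene length and annotation.

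**Figure D1:**
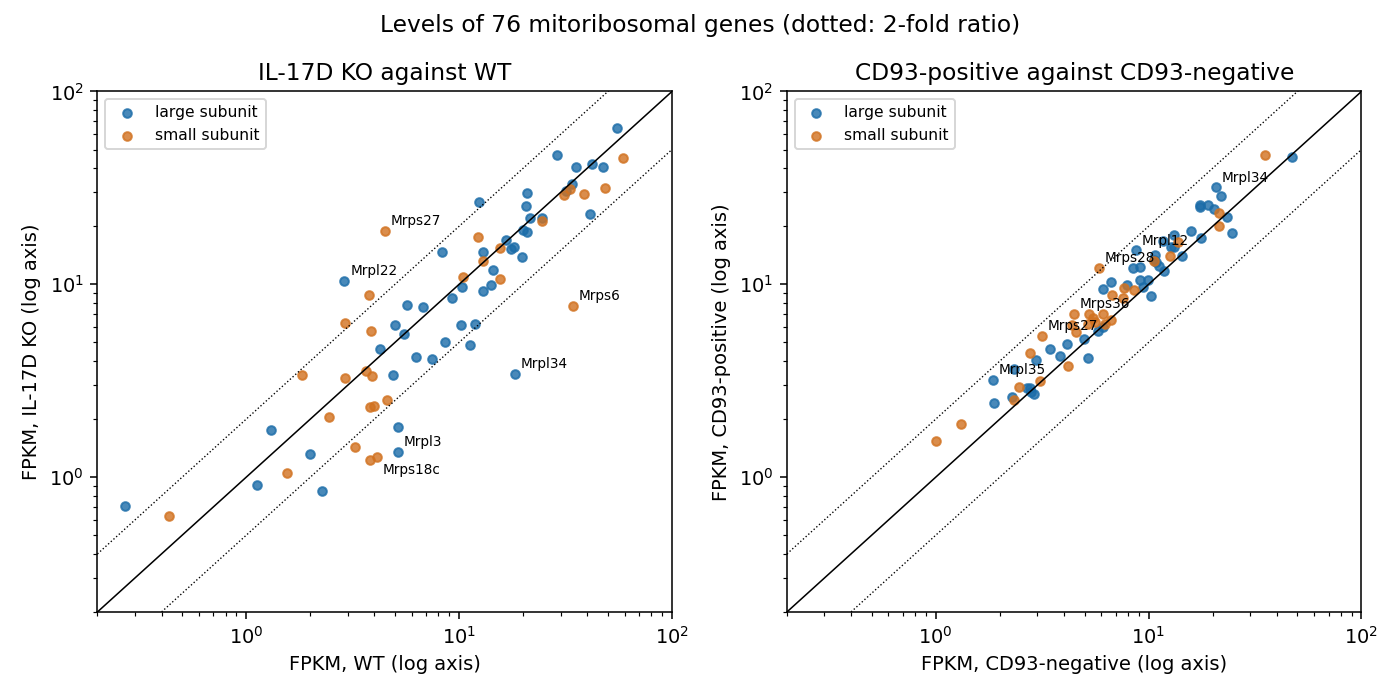
FPKM of the 76 mitoribosomal genes in both libraries of each pair, on log axes; blue points are large and orange points small subunit genes, the solid line is equality and the dotted lines a 2-fold ratio. The 6 genes with the largest difference in log2(FPKM + 1) are named. Points scatter more widely in the first pair (r = 0.885) than in the second (r = 0.971).

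The first comparison sets IL-17D KO beside WT ILC3s. Of the 74 measured members, 4 were at least 2-fold higher in IL-17D KO (Mrps27, Mrpl22, Mrpl37 and Mrps9) and 7 at least 2-fold lower (Mrpl34, Mrps6, Mrpl3, Mrps18c, Mrpl51, Mrps25 and Mrpl20). Together these are 14.9% of the members, against 29.3% of all 12376 measured genes past 2-fold in either direction (16.6% higher and 12.7% lower). Differences lay above 0 for 27 members and below 0 for 47, while 50.5% of all measured genes lay above 0. The median of the members was -0.15 and that of all genes 0.01, and their standard deviations across genes were 0.67 and 1.09. At a limit of 1.5-fold, 8 members were higher and 16 lower, against 26.5% and 22.9% of all genes.

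Mrps27 (ENSMUSG00000041632.7; mm10 chromosome 13, 99344786 to 99415562, plus strand) encodes a small subunit protein with no bacterial counterpart. It had an FPKM of 18.9 in IL-17D KO and 4.49 in WT, a ratio of 4.21 (3.66 to 4.86) from 1068 and 245 reads. Mrpl22, whose protein lines the tunnel through which the new chain leaves, had 10.5 and 2.89, a ratio of 3.62 (2.79 to 4.74). Mrps9, a small subunit gene with a bacterial counterpart, had 8.76 and 3.78, a ratio of 2.31 (2.10 to 2.56). Mrpl37, a large subunit gene without such a counterpart, had 26.6 and 12.4, a ratio of 2.14 (2.01 to 2.28) from the deepest of these counts, 3207 and 1448 reads. The genes higher in IL-17D KO thus came from both subunits and from both the bacterial and the mitochondrial kind.

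Mrpl34 (ENSMUSG00000034880.7; chromosome 8, 71464959 to 71465747, plus strand), a gene for a small protein of the large subunit, was the lowest member. It had an FPKM of 3.42 in IL-17D KO and 18.3 in WT, 5.34-fold lower (4.001 to 7.25) from 56 and 289 reads. Mrps6 had 7.70 and 34.3, 4.45-fold lower; its values did not come out as whole reads with the annotated length, so no interval is given. Mrpl3, at the peptidyl transferase region of the large subunit, had 1.35 and 5.17, 3.85-fold lower (3.33 to 4.45). Its companion there, Mrpl2, went the other way with 46.6 and 29.0, a ratio of 1.61 (1.48 to 1.75).

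Mrps18c, Mrps25 and Mrpl51 had an FPKM under 2 in IL-17D KO. Mrps18c had an FPKM of 1.27 in IL-17D KO and 4.10 in WT, 3.22-fold lower (2.20 to 4.79) from 37 and 115 reads. Mrps25 had 1.22 and 3.83, 3.13-fold lower (2.68 to 3.67), and Mrpl51 had 1.81 and 5.14, 2.83-fold lower (2.40 to 3.35). Mrpl20, at 4.87 and 11.3, was 2.32-fold lower (1.97 to 2.73) and lay just past the limit with a difference of -1.06. Just inside it was Mrps34, with 6.28 and 2.90 and a difference of 0.90.

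Of the stalk that recruits translation factors, Mrpl12 had an FPKM of 0.846 and 2.28, 2.69-fold lower in IL-17D KO (1.80 to 4.10, 35 and 91 reads), and Mrpl10 had 5.03 and 8.60, 1.71-fold lower (1.45 to 2.02). At the decoding centre, Mrps12 was 1.52-fold lower (1.39 to 1.65) and Mrps5, at 2.05 and 2.44, 1.19-fold lower (1.03 to 1.37). The stalk and decoding genes named here were thus lower in IL-17D KO, all under 2-fold on the log2(FPKM + 1) scale. Mrpl45, which faces the inner membrane at the tunnel exit, had 22.1 and 21.6, a ratio of 1.03 (0.954 to 1.102), and Mrpl44, a relative of RNase III, had 8.54 and 9.30, a ratio of 0.918 (0.795 to 1.06). Both of these intervals hold 1.

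The 3 paralogs Mrps18a, Mrps18b and Mrps18c did not share a direction. Mrps18a had an FPKM of 17.5 and 12.3, a ratio of 1.43 (1.32 to 1.54), while Mrps18b had 2.32 and 3.84, 1.65-fold lower (1.32 to 2.07), and Mrps18c was lower still. Mrps18a and Mrps30, the latter at 3.39 and 1.83, are named for the small subunit, but structures place their proteins in the large subunit.

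Counting error, as the intervals give it, was small beside many of these differences. The intervals take reads as independent draws, and error beyond that could not be measured with 1 library per group. In this pair some genes had over 200 reads in 1 library and 0 in the other, such as Gatb (0 in IL-17D KO and 235 in WT) and Gatc (236 and 0). Of the 67 measured members with whole reads in both libraries, the interval of the ratio lay above 1 for 16, below 1 for 36 and held 1 for 15. It excluded 1 for 87.3% of the 8322 genes with such intervals, lying above 1 for 46.0% and below for 41.3%. The share past 2-fold fell with depth for members and for all genes alike: 5 of 26 members with 200 to under 1000 reads over the pair were past 2-fold, beside 1099 of 3057 genes, and 4 of 39 members with 1000 reads or more (10.3%), beside 509 of 4168 genes (12.2%). At the deeper level the members' share is close to that of all genes.

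The direction of the median depended on the scale. FPKM summed to 510427 in IL-17D KO and 575053 in WT, and bringing both to their mean moved the members' median to 0.02 and that of all genes to 0.17, with 38 members above 0 and 36 below. Relative to the median of all genes the members stayed lower, by 0.16 as deposited and by 0.15 with equal sums. With equal sums Mrps34 also passed 2-fold, at 1.04, while Mrpl20 (-0.91) and Mrpl51 (-0.9983) no longer did; the other named members kept their side of the limit.

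**Figure D2:**
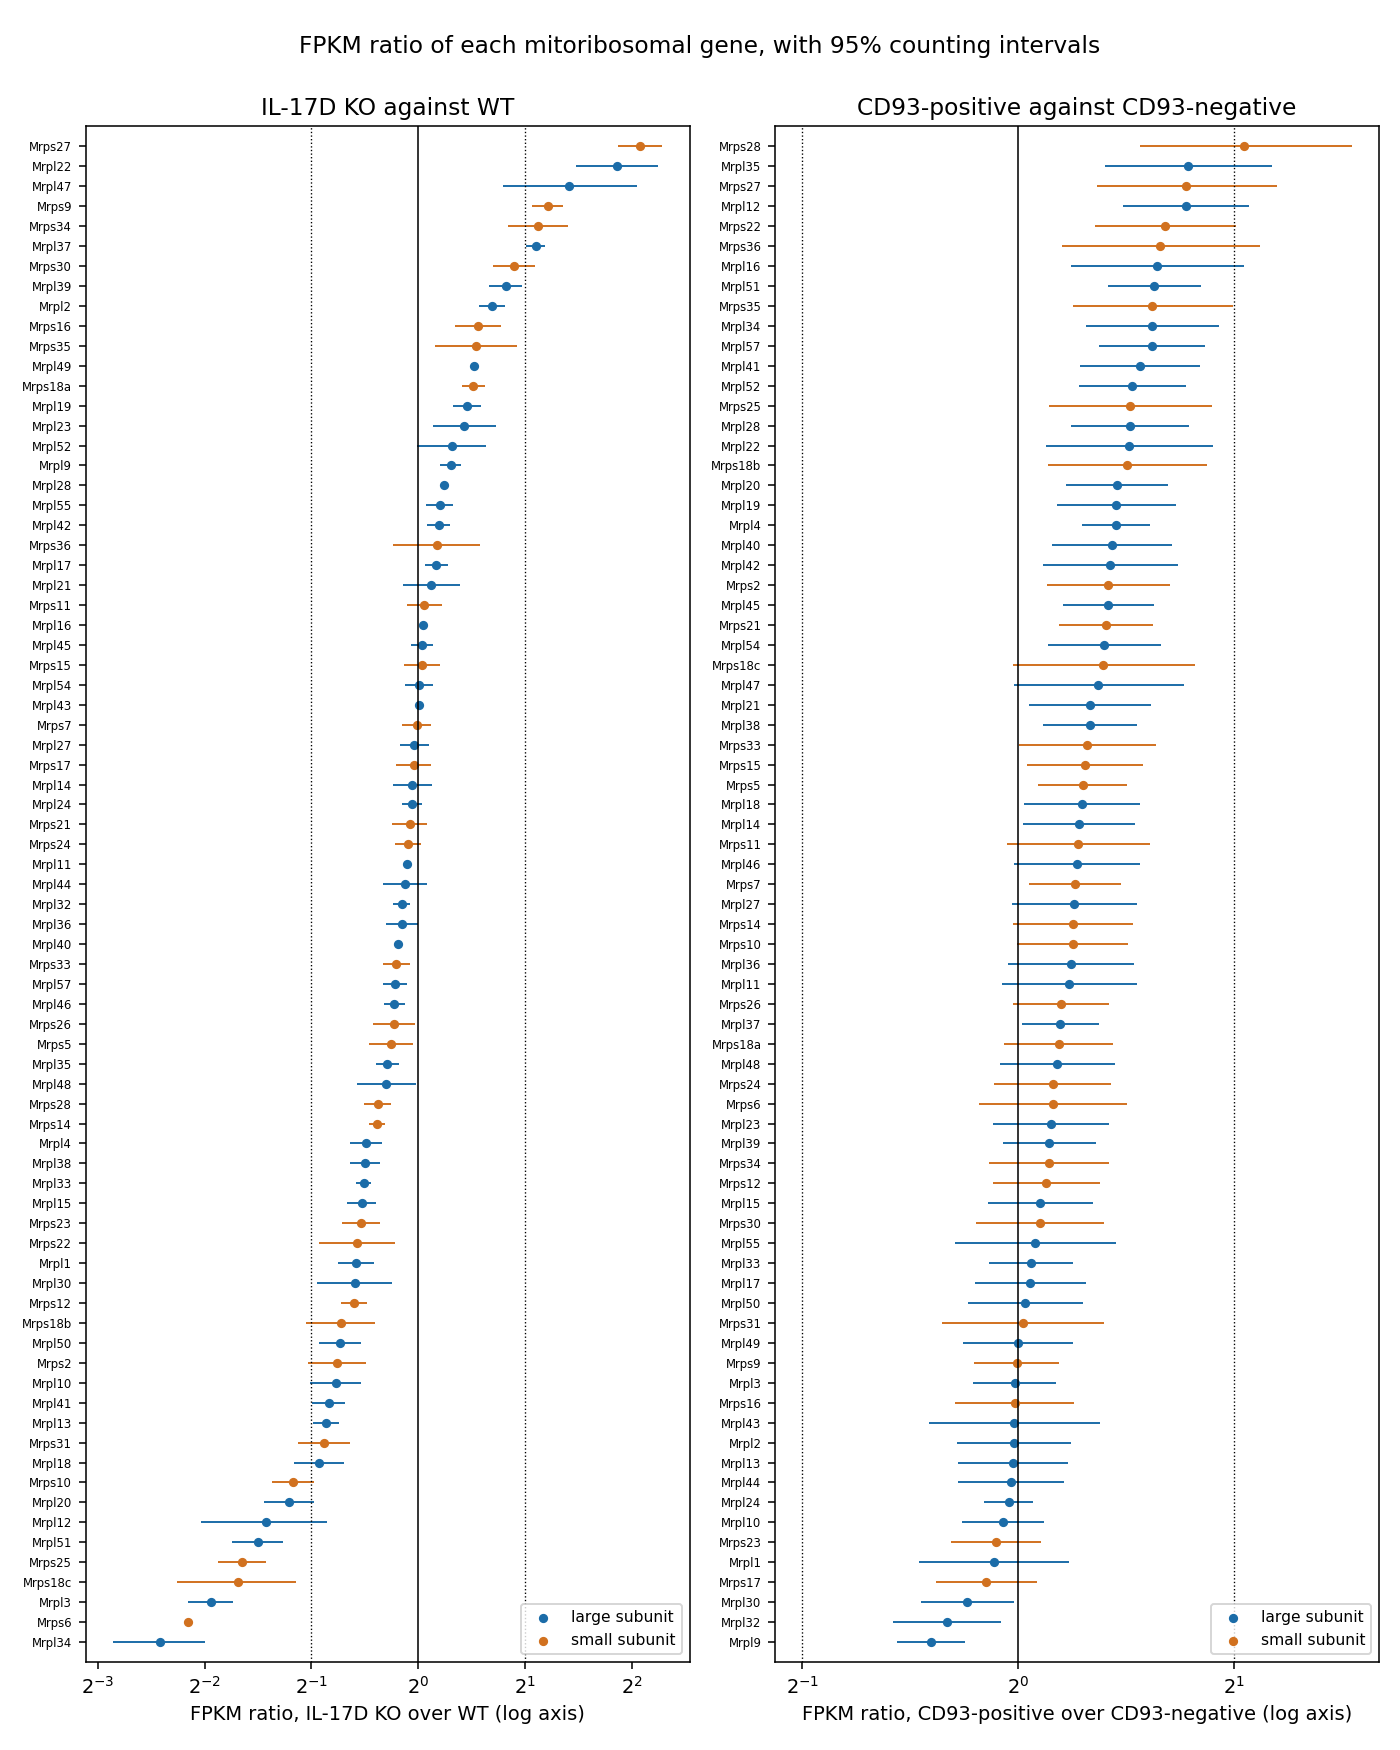
FPKM ratio of each mitoribosomal gene (points, log axis) in the 2 pairs, ordered within each pair, with 95% counting intervals (bars) where reads could be recovered; dotted lines mark a 2-fold ratio. Ratios run from Mrpl34 (5.34-fold lower) to Mrps27 (4.21-fold higher) on the left and from Mrpl9 (0.756) to Mrps28 (2.07) on the right.

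The second comparison sets CD93-positive beside CD93-negative ILC3s of WT mice. Of 76 members, 0 were past 2-fold in either direction, where 4.43% of all 10117 measured genes were (2.49% higher and 1.94% lower in CD93-positive). Differences were small but leaned to one side: 60 members lay above 0 and 16 below, while 54.4% of all genes lay above 0. The members' median was 0.24, that of all genes 0.04, and the standard deviations across genes were 0.24 and 0.46. The FPKM ratio itself lay within 1.5-fold for 65 of the 76 members, was at least 1.5-fold higher in CD93-positive cells for 11, and was at least 1.5-fold lower for 0. The shares of all genes on this ratio were not computed, so these counts show nothing particular to the members.

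Mrps28 (ENSMUSG00000040269.5; chromosome 3, 8802146 to 8923918, minus strand), a small subunit gene, had the highest difference, 0.94. Its FPKM was 12.1 in CD93-positive and 5.85 in CD93-negative cells, a ratio of 2.07 (1.48 to 2.92) from 111 and 54 reads; it misses the limit because 1 is added to each level, and passes it when 0.1 is added. Mrpl12, of the stalk, had 14.99 and 8.75, a ratio of 1.71 (1.40 to 2.10). Mrps27 had 5.43 and 3.16, a ratio of 1.72 (1.29 to 2.30), and Mrpl34 had 31.8 and 20.7, a ratio of 1.54 (1.24 to 1.90). These 4 of 76 were at least 1.5-fold higher on the log2(FPKM + 1) scale, where 7.62% of all genes were, and 0 of 76 were 1.5-fold lower, where 6.92% of all genes were. Mrps36, whose protein is also known from the 2-oxoglutarate dehydrogenase complex, had 7.04 and 4.46, a ratio of 1.58 (1.15 to 2.18).

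Only 3 members had an interval wholly below 1. Mrpl9 (ENSMUSG00000028140.13; chromosome 3, 94443318 to 94451130, plus strand) stood at 18.5 FPKM in CD93-positive and at 24.5 in CD93-negative cells, a ratio of 0.756 (0.678 to 0.842). Mrpl32 had 4.15 and 5.21, a ratio of 0.796 (0.670 to 0.945), and Mrpl30 had 8.71 and 10.3, a ratio of 0.849 (0.731 to 0.986). All belong to the large subunit, as do 47 of all 76 members. Intervals lay above 1 for 35 members and held 1 for 38, against 34.2% of 9842 genes above 1 and 25.8% below. Mrpl24, the member with the highest level, had a ratio of 0.970 (0.896 to 1.05) from 1212 and 1258 reads.

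Genes of known parts of the ribosome had ratios on either side of 1. At the decoding centre, Mrps12 had an FPKM of 23.4 and 21.4, a ratio of 1.095 (0.923 to 1.30), and Mrps5 had 5.63 and 4.58, a ratio of 1.23 (1.07 to 1.42). At the peptidyl transferase region, Mrpl2 (17.4 and 17.7) and Mrpl3 (5.70 and 5.77) had ratios of 0.986 (0.821 to 1.18) and 0.989 (0.866 to 1.13). Mrpl10 had a ratio of 0.953 (0.835 to 1.09), apart from its stalk partner Mrpl12. Mrpl45 at the tunnel exit had 14.3 and 10.7, a ratio of 1.34 (1.15 to 1.55). The paralogs Mrps18a, Mrps18b and Mrps18c were all above 1 here, with ratios of 1.14 (0.955 to 1.36), 1.42 (1.102 to 1.84) and 1.31 (0.982 to 1.76).

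The lean to CD93-positive cells was smaller on an equal-sum scale. FPKM summed to 256540 in CD93-positive and 227212 in CD93-negative cells. With equal sums the members' median was 0.08 and that of all genes -0.12, and 47 members lay above 0 and 29 below. Against the median of all genes the members stood 0.21 higher as deposited and 0.20 with equal sums, and 0 of 76 passed 2-fold on either scale.

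**Figure D3:**
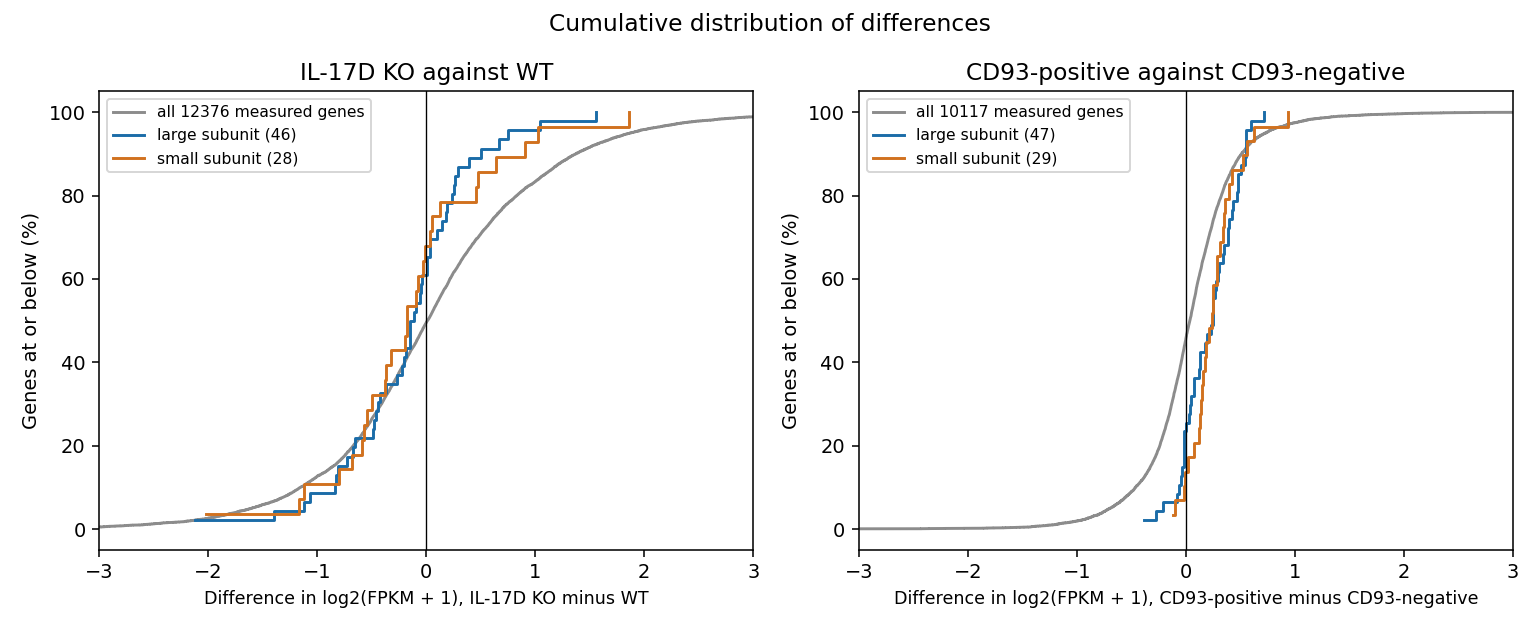
Cumulative share of genes (vertical axis, percent) by difference in log2(FPKM + 1) (horizontal axis, shown from -3 to 3) for large subunit, small subunit and all measured genes in each pair. Both subunits rise more steeply than all genes, with medians of -0.13 and -0.18 on the left and 0.25 and 0.24 on the right.

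Large and small subunit genes were compared within each pair. In IL-17D KO against WT, the median difference was -0.13 for 46 large subunit genes, with 2 past 2-fold higher and 4 lower, and -0.18 for 28 small subunit genes, with 2 higher and 3 lower. In the CD93 pair the medians were 0.25 for 47 large and 0.24 for 29 small subunit genes, and 35 of 47 and 25 of 29 lay above 0. The gap between the subunits, 0.05 in the first pair and 0.01 in the second, was not tested. It turned sign under other settings in both pairs. Counting Mrps18a and Mrps30 with the large subunit gave 0.08 and -0.02.

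Summed levels of the subunits were also compared. Large subunit genes summed to an FPKM of 714 in IL-17D KO, 737 in WT, 601 in CD93-positive and 507 in CD93-negative cells. Small subunit genes summed to 332, 391, 273 and 225. The ratio of large to small was 2.15 in IL-17D KO and 1.88 in WT, and 2.20 in CD93-positive and 2.25 in CD93-negative cells. Per gene, the mean of the large subunit was 1.33 and 1.16 times that of the small subunit in the first pair and 1.36 and 1.39 times in the second. Mean FPKM per gene was thus higher for the large subunit in every library. The ratio of medians went the other way within the first pair, at 1.59 in IL-17D KO and 3.04 in WT, and was 1.76 and 1.68 in CD93-positive and CD93-negative cells. Without Mrps6 (7.70 and 34.3), the ratio of sums was 2.20 in IL-17D KO and 2.07 in WT. The members together made 0.205% (IL-17D KO) and 0.196% (WT) of summed FPKM, and 0.340% and 0.323% in CD93-positive and CD93-negative cells.

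The differences of the 2 pairs were set side by side, as they share no library. Across the 76 members they had r of -0.08 (rho -0.10). Higher in both IL-17D KO and CD93-positive cells were 23 members, and lower in both were 10. Lower in IL-17D KO but higher in CD93-positive cells were 37, and the reverse held for 6. The 23 take in Mrpl47 and Mrps35, which were not measured in the first pair. Each pair leaned on its own, with 47 of 74 measured members below 0 in the first and 60 of 76 above 0 in the second. Mrpl12, Mrpl34, Mrpl41 and Mrpl51 differed by at least 0.5 in opposite directions. The share of all genes in each class was not computed, so these counts show nothing particular to the members. Mrpl41, a large subunit gene without a bacterial counterpart, had an FPKM of 23.0 in IL-17D KO and 41.1 in WT, 1.79-fold lower (1.61 to 1.99), and 25.9 in CD93-positive and 17.5 in CD93-negative cells, a ratio of 1.48 (1.22 to 1.80). Mrpl51 had 9.48 and 6.13 in the second pair, a ratio of 1.55 (1.33 to 1.80), against its lower level in IL-17D KO. Mrps27 was among the highest members of both pairs.

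Several members have near-identical copies elsewhere in the genome, which can take up or add reads. Among annotated pseudogene transcripts, 45 copies of 25 members were found at 90% identity or more over at least 220 bases. Of these, 5 were listed in the first pair's table and 0 in the second's. Mrpl23-ps1, identical to Mrpl23 over 540 bases, had an FPKM of 118 in IL-17D KO and 144 in WT, beside 1.75 and 1.30 for Mrpl23 itself. Mrpl48-ps, 98.1% identical over 636 bases, had 61.2 and 80.6, beside 0.913 and 1.12 for Mrpl48. The levels of these parents are therefore uncertain, and their copies stood far above them in both libraries.

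Mrps36 and Mrpl27 had listed copies as well. Mrps36-ps1 had an FPKM of 32.1 and 23.9 and Mrps36-ps2 had 12.1 and 9.43, beside 3.28 and 2.92 for Mrps36. Gm6304, a copy of Mrpl27, had 34.5 and 46.3, beside 33.1 and 34.0. Of the 11 members past 2-fold in the first pair, Mrpl22, Mrps18c, Mrpl51 and Mrpl20 have such a copy, and so does Mrpl12. Members without a copy had a median difference of -0.09 in the first pair and 0.16 in the second; those with a copy had -0.18 and 0.29.

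Other nuclear genes of mitochondrial translation were read from lists. Of 15 measured translation factors and tRNA or mRNA handling genes in the first pair, 4 were past 2-fold higher in IL-17D KO and 2 lower, with a median of 0.33; over all measured genes 16.6% were higher and 12.7% lower, which is the background of the lists that follow too. Gatb and Gatc, which encode partners in the enzyme that makes mitochondrial glutaminyl-tRNA, stood opposite each other: Gatb had 0 reads in IL-17D KO and 235 in WT, at least 81.1-fold lower, and Gatc had 236 and 0, at least 76-fold higher, each against 3 reads per library. Qrsl1, which encodes the enzyme's catalytic subunit, had an FPKM of 1.90 in both libraries. The tRNA-modifying gene Trmu had 191 and 0 reads, at least 61.5-fold higher. Of 18 genes of this list in the CD93 pair, 0 were past 2-fold, and Gatb (1.45 and 1.34), Gatc (10.6 and 10.7) and Trmu (3.95 and 3.97) had nearly equal levels.

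Of 19 ribosome assembly and rRNA modification genes, 3 were higher in IL-17D KO (Ddx28, Eral1 and Mtg2) and 3 lower (Ngrn, Mterf3 and Mterf4), with a median of 0.10; these 31.6% are near the 29.3% of all genes past 2-fold. Eral1, a chaperone of the small subunit's ribosomal RNA, had an FPKM of 8.21 and 3.01, a ratio of 2.73 (2.30 to 3.26), and Ngrn had 1.69 and 9.71, 5.76-fold lower (4.52 to 7.43). Between the CD93 libraries 0 of 21 were past 2-fold (median 0.03). Of mitochondrial aminoacyl-tRNA synthetases, 2 of 16 were higher in IL-17D KO and 5 lower (median -0.29). In the CD93 pair, 0 of 17 were past 2-fold higher and 1 lower (median 0.13), against 2.49% and 1.94% of all genes. Sars2, the mitochondrial seryl-tRNA synthetase and among those higher in IL-17D KO, had 1.61 in IL-17D KO and 0.0579 in WT, from 144 and 5 reads. It had 6.37 in CD93-positive and 4.56 in CD93-negative cells, a ratio of 1.40 (1.15 to 1.70).

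Transcription and regulator genes had 2 of 13 higher in IL-17D KO (Myc and Tefm, 15.4% against 16.6% of all genes; median -0.03) and 0 of 13 past 2-fold in the CD93 pair (median 0.01). Tfam, which packages mitochondrial DNA and starts its transcription, had an FPKM of 7.31 and 9.08 in the first pair and 9.25 and 8.47 in the second. Ribosome proteins that do not carry an Mrp symbol, with the insertase gene Oxa1l, had 0 of 7 past 2-fold in the first pair (median 0.29) and 0 of 6 in the second (median 0.05). Dap3 of the small subunit had 6.04 and 4.76, a ratio of 1.27 (1.16 to 1.39), and 4.77 and 4.47, a ratio of 1.07 (0.917 to 1.24). Mrpl58, tabulated by that name for the CD93 pair alone and by its older name Ict1 for the first, had 20.9 in IL-17D KO and 11.9 in WT, and 6.84 in CD93-positive and 5.75 in CD93-negative cells.

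The messages that these ribosomes translate, and the other parts of the machines they serve, complete the set. Of 13 mitochondrially encoded mRNAs, 0 were past 2-fold in the first pair, and all 13 lay below 0 as deposited (median -0.42). The nearest to 0 was mt-Nd6, at -0.01, and mt-Co1 had an FPKM of 1497 in IL-17D KO and 1767 in WT. Between the CD93 libraries 11 of 12 lay above 0 (median 0.47), with mt-Co1 at 2630 and 2395 and mt-Nd1 at 856 and 567. The only one of them past 2-fold, mt-Nd4l, rested on 19 and 4 reads. Nuclear subunits of the respiratory chain and ATP synthase had 0 of 77 higher and 3 lower in IL-17D KO (median -0.22), and 0 of 77 past 2-fold with a median of 0.32 in CD93-positive cells. Cytosolic ribosomal protein genes had 3 of 75 higher and 8 lower (median -0.54) and, in the CD93 pair, 1 of 77 higher and 0 lower (median 0.01). The shares past 2-fold were thus 3.90% and 14.7% for these 2 lists in the first pair, against 29.3% of all genes, and 0% and 1.30% in the second, against 4.43%. In the CD93 pair the medians of the mitoribosomal genes, the mitochondrial mRNAs and the nuclear respiratory chain genes thus all lay above that of all genes (0.0372). So did those of the translation factor list (0.11), the aminoacyl-tRNA synthetases (0.13) and the other ribosome proteins (0.05). The medians of the ribosome assembly list (0.0345), the transcription and regulator list (0.01) and the cytosolic ribosomal protein genes did not. Near-identical copies were searched for the members alone, so what copies take from or add to the cytosolic and respiratory chain lists is not known. Differences between lists were not tested. All values of the lists are given on the deposited scale alone. As for the members, their medians shift with equal sums, and the signs of small differences can turn.

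**Figure D4:**
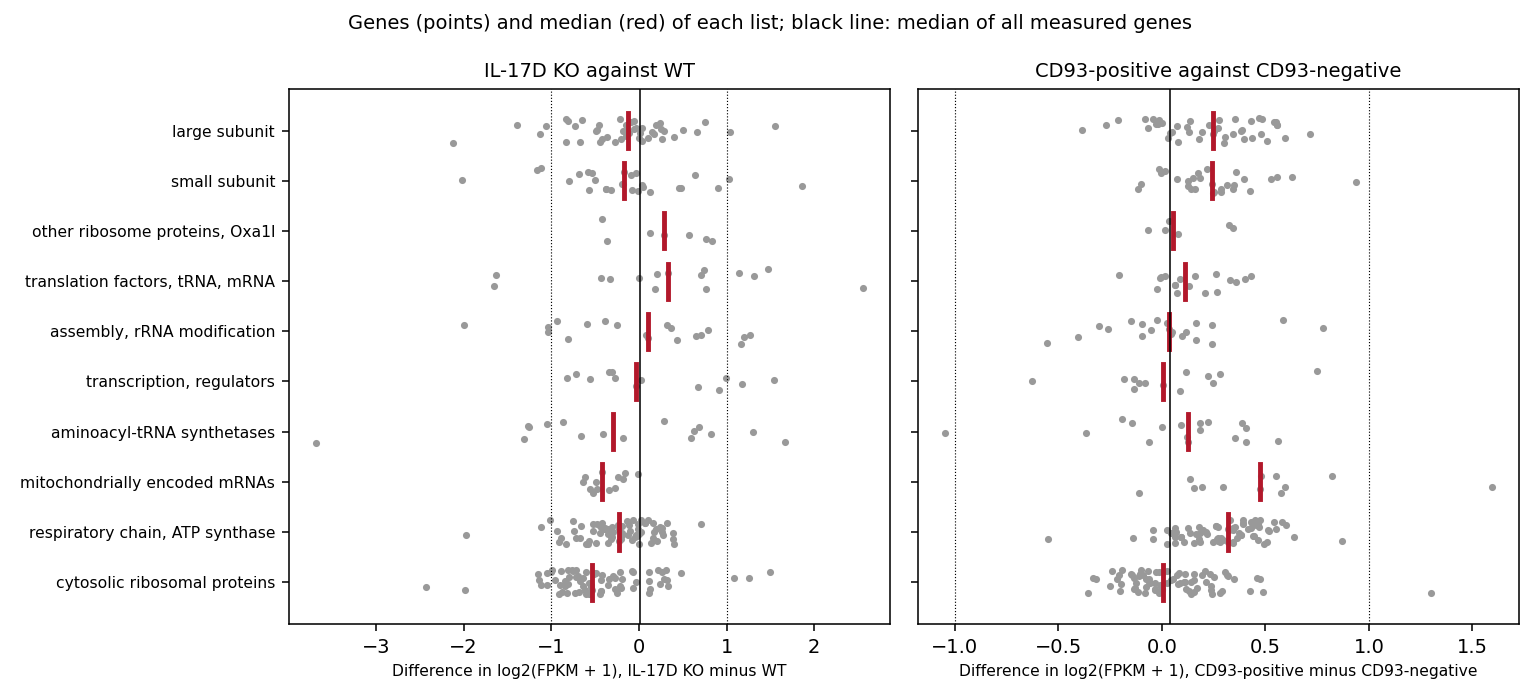
Difference in log2(FPKM + 1) of each measured gene (grey points, jittered vertically) by list, with the list median (red bar), in each pair; the black line is the median of all measured genes and dotted lines mark 2-fold. Subunit medians lie at -0.13 and -0.18 on the left and 0.25 and 0.24 on the right, beside -0.54 and 0.01 for cytosolic ribosomal proteins. Near-identical copies were searched for the subunit genes alone.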

How the data were processed

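FPKM values were computed and deposited by the authors, in 1 table per library and 1 per pair; both held equal values. The submitters' processing notes name Bowtie2, Subread's featureCounts, edgeR and DESeq2 and the build mm10, without versions, settings, order or gene annotation. No count test was possible with 1 library per group.

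Reads were recovered as FPKM times GENCODE M21 exon length times a library total. The total was fitted so that reads came out whole, so the shares of whole reads below partly reflect that fit. They came out whole, within 0.02 reads, for 92.1% (IL-17D KO), 91.9% (WT), 98.1% (CD93-positive) and 98.2% (CD93-negative) of values above 0 with a length, and for 69 and 76 of 76 members in both libraries of a pair. The recovery was checked on data simulated with the same lengths, which cannot show a wrong annotation. Reads give exact intervals (scipy 1.17.1). A fold against 0 reads is a bound against 3 reads. Copies were found with BLAST+ 2.17.0 in GENCODE M21.

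Members and lists were chosen with earlier results of these data known. Named members are those past 2-fold, the 5 highest and 5 lowest by difference (FPKM of at least 5) and by level, those of known role and those at least 0.5 apart in opposite directions in the 2 pairs; of other lists, genes past 2-fold or known for their role. Values shown for Mrpl43 and other members outside this rule were chosen after they were seen. Other pseudocounts, filters, limits and scalings were tried; 4 alternatives (without members that have copies, whole reads alone, at least 200 reads, Mrps18a and Mrps30 moved), and the subunit ratios by medians and without Mrps6, were chosen after seeing the data. A few genes of the lists are not reported here.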

Additional observations from a re-analysis of the deposited data

How the results depend on the processing

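No paired analysis was possible because each group has 1 library, which also leaves no replicate to leave out. The cause of each shift below was not tested, other than what the setting itself removes or rescales. In IL-17D KO against WT the members' median (-0.15 as reported) was 0.0174 with FPKM sums brought to their mean and 0.0316 with sums of 1000000, both of the opposite sign; it was -0.0811 with a pseudocount of 5, -0.0863 with an FPKM of at least 5 and -0.0934 without members that have a copy. The 4 higher and 7 lower members became 1 and 2 with a pseudocount of 5, 1 and 2 at 3-fold, and 8 and 16 at 1.5-fold; without members that have a copy 4 were lower. In the CD93 pair the median (0.24) was 0.1322 with a pseudocount of 5, 0.0828 and 0.0866 with the 2 equal-sum scalings and 0.1605 without members that have a copy, and 1 member was past 2-fold with a pseudocount of 0.1 and 4 past 1.5-fold, all higher. The gap of large over small subunit (0.05) in the first pair was 0.0749 and 0.0149 with pseudocounts of 0.1 and 5, -0.0552 with an FPKM of at least 5, 0.0789 with sums of 1000000, -0.0389 without copies, 0.0254 with whole reads alone, -0.0138 with at least 200 reads and 0.0849 with Mrps18a and Mrps30 moved. In the second pair (0.01) it was -0.0044 and 0.0569 with the 2 pseudocounts, -0.0037 and -0.0044 with the equal-sum scalings, 0.0023 with a median ratio of 1, -0.0051 without copies, 0.0463 with at least 200 reads and -0.0203 with those 2 genes moved. Values of single named members under these settings were tallied by the fold limit. Of these, 19 no longer passed 2-fold, 15 newly passed the limit in use and 764 kept their side of it. The tally does not follow signs inside the limit, and a difference near 0 can change sign with the scale.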

Other observations

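Many members share their start region with a gene on the other strand. Of the 76 members measured in the CD93 pair, 33 (43.4%) had the annotated start of another protein-coding gene within 1000 bases on the opposite strand, against 17.7% of 9996 measured protein-coding genes. Some neighbours also serve mitochondria. Mrpl46 and Mrps11, of the large and the small subunit, start 412 bases apart. Mrps12 starts 172 bases from Sars2, the mitochondrial seryl-tRNA synthetase, and Mrpl43 starts 779 bases from Twnk, the mitochondrial DNA helicase. The promoter printed for Mrps27 is the stretch between its start and that of Ptcd2, which lies 81 bases away.

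Members and their neighbours were set side by side. In IL-17D KO against WT, 6 of 21 measured members and partners had the same sign (r = -0.07 across them), and in the CD93 pair 16 of 26 did (r = -0.06). Mrpl46 and Mrps11 enter as each other's partner, so they are counted more than once. The same share over all genes with such a neighbour was not computed. Signs near 0 also depend on the scale, so these counts show nothing particular to the members. Mrps12 had an FPKM of 31.8 in IL-17D KO and 48.2 in WT, while Sars2 had 1.61 and 0.0579, a ratio of 27.8 (11.7 to 87.0) from 144 and 5 reads. Mrps27 and Ptcd2 were both higher in the IL-17D KO library, with Ptcd2 at 29.5 and 15.6. In the CD93 pair, Mrps27 differed by 0.63 and Ptcd2 (8.97 and 9.11) by -0.02.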
